A study of Mus musculus with 5 samples.

Results

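The 9 genes described here, Fos, Fosb, Fosl2, Jun, Junb, Jund, Batf, Batf3 and Atf3, encode proteins of the AP-1 family of transcription factors, and were measured among 19937 genes on arrays of mouse colon CD4 T cells. For each gene the probe set annotated with that single symbol and the highest mean over all arrays was taken, and each of the 9 had 1 such probe set. The samples were 3 arrays from conditional mice, in which a Cre recombinase driven by CD4 is combined with a floxed Cnb1 allele (CD4cre/Cnb1flox), and 2 arrays from control mice, which carry the same floxed allele and no Cre (CD4neg/Cnb1flox). Cnb1 is the regulatory B subunit of calcineurin, gene symbol Ppp3r1. The cells of both groups had been sorted from the lamina propria, the tissue layer under the gut epithelium, as CD45+CD3+CD4+ cells with low CD44, a surface receptor that rises as T cells differentiate. No treatment was given. The sources used here give no age, sex or strain of the mice, nor whether an array held RNA of 1 mouse or of several. The design text speaks of 3 separate experiments of 3 to 5 mice per group. Nothing says that the arrays of a group came from separate animals, so p-values measure only the spread from array to array, part of which could be technical.

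AP-1 is a dimer of basic leucine zipper proteins. JUN proteins pair with each other or with FOS proteins, which cannot pair among themselves, and BATF and ATF proteins pair with JUN proteins. In T cells, calcineurin removes phosphates from NFAT, which then enters the nucleus and binds DNA together with FOS-JUN dimers at composite sites of cytokine genes. The FOS-JUN side of that complex is supplied by the MAP kinase and protein kinase C branches of T cell receptor signalling. BATF-JUN dimers bind with the factor IRF4 and are known for their part in Th17 and follicular helper differentiation. Most members are immediate-early genes, which are transcribed within minutes of a stimulus, and cell isolation from tissue is itself such a stimulus.

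The promoters of the 4 members with the most negative difference between conditional and control cells are shown, because short CRE-type elements near the start site are a known feature of immediate-early genes. Each is a RefSeq window of 300 bases, 250 before the start site and 50 after it (assembly GRCm38.p6), and all 9 members matched the table. Capitals mark TGACG, the half-site bound by CREB and ATF proteins, on either strand, or TGACNTCA, a form of the site that JUN-ATF dimers bind. The windows are chr12:85473640-85473939 (plus strand) for Fos, chr7:19309996-19310295 (minus strand) for Fosb, chr4:95052173-95052472 (minus strand) for Jun and chr1:191183284-191183583 (minus strand) for Atf3.
Fos: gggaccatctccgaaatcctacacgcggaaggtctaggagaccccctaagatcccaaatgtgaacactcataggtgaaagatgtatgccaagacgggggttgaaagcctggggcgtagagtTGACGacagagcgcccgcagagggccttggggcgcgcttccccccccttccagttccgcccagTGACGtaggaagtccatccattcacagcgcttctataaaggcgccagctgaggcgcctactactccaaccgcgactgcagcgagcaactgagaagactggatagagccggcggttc
Fosb: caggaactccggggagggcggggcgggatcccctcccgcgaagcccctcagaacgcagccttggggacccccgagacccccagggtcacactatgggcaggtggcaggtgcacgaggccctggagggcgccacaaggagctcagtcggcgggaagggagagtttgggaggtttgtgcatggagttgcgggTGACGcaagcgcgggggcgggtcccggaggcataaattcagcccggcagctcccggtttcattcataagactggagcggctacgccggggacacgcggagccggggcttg
Jun: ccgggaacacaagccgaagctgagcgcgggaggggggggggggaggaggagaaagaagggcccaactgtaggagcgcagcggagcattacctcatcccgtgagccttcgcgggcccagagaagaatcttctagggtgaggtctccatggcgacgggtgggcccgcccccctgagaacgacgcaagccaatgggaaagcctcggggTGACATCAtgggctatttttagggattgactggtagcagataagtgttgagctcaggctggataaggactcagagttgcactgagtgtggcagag
Atf3: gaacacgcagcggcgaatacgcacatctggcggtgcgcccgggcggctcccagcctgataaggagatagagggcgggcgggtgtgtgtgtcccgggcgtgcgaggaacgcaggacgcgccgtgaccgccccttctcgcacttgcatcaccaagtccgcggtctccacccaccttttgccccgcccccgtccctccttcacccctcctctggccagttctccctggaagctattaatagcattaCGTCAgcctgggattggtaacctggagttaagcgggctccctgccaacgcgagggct
The Fos window held TGACG at 129 and 66 bases before the start and TATAAA at 33 bases before it. The Fosb window held TGACG at 60 bases before the start, and the Atf3 window held it on the other strand at 7 bases before the start. The Jun window had no TGACG and held TGACATCA at 45 bases before the start.

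Over all members TGACG was found in 5 of 9 windows, those of Fos, Fosb, Junb, Batf and Atf3, and in 20.8% of all 32851 promoter windows. The share of G and C in these windows was 58.7%, 68.3%, 65.3%, 49.7% and 64.7%, in that order. The median over all windows was 52.7%, and the part of base composition in the count was not tested. TGACNTCA, searched on both strands and overlapping TGACG where N is G, was found in the Jun window alone among the members and in 8.83% of all windows. The AP-1 site TGANTCA was found in 0 of 9 member windows and in 7.81% of all windows. The serum response element core, the CArG box, was likewise in 0 of 9, and in 1.63% of all windows. Sequence further upstream than the windows was not searched. A CArG box there would have been missed, so the members cannot be said to lack it. GGAAA, the core letters of NFAT sites, was present in the windows of Jun, Batf and Batf3, against 61.3% of all windows. TGACG occurred both in members that were lower in conditional cells and in Batf, whose conditional values lay between the controls. These are letter matches in short windows and a description, not bound sites.

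The median log2 signal of an array was 7.12 to 7.23, and no 2 arrays held identical values. The targeted gene Ppp3r1 was read at 8.64, 8.83 and 8.77 in conditional and 8.99 and 8.60 in control cells. The groups overlapped, with a difference of -0.05 (limma, adjusted p = 0.927). The position of the Ppp3r1 probe set was not examined. That probe set may lie outside the deleted part, in which case it checks nothing. Control replicate 1 stood apart from the other 4 arrays. The mean log2 level of 11 of 13 listed T cell markers (Cd3e and Cd4 among them) was 10.92 to 11.17 in conditional arrays, 11.28 in control replicate 2 and 8.42 in control replicate 1. For 14 of 14 epithelial markers it was 7.46 to 7.88 in conditional cells, 8.39 in control replicate 2 and 9.83 in control replicate 1, and for 12 of 12 stromal and endothelial markers 8.49 to 9.55, 9.07 and 10.73. Macrophage and dendritic cell markers (12 of 12) were at 7.54 to 8.23 in conditional cells against 6.97 and 6.89 in control replicates 1 and 2, granulocyte and mast cell markers (10 of 10) at 6.14 to 6.36 against 5.60 and 5.61, natural killer and innate lymphoid markers (8 of 8) at 7.29 to 7.57 against 6.04 and 6.84, and B and plasma cell markers (7 of 8) at 8.53 to 9.40 against 9.65 and 9.29. Log2 array signals have no 0, and no call against background was available. The part of other cells in the results below was not tested beyond the values given, and in bulk RNA fewer cells of a type and less RNA per cell cannot be told apart.

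Fos fell in conditional cells, and Fosb, Jun, Jund and Atf3 were also below both controls on every conditional array, while Fosl2, Junb, Batf and Batf3 overlapped between the groups. Conditional cells had a Fos signal 2.95-fold lower than control cells. Of the 9 members, 1 passed an adjusted p of 0.05 in limma, where 0.416% of all 19937 genes passed and 0.0451% passed as lower. The 5 members with all conditional values below both controls compare with 13.1% of all genes in that arrangement, and 0 members had all conditional values above both controls, against 17.4% of all genes (30.5% of all genes for either arrangement). None passed as higher, where 0.371% of all genes did. At an unadjusted p of 0.05 in limma, 5 members were lower, against 5.91% of all genes, and 0 higher, against 8.59%. With a threshold of 0.1 on the adjusted p, 2 members passed, Fos and Fosb, against 1.88% of all genes. The median difference of the 9 members was -0.59 on the log2 scale, beside 0.03 for all genes, and 7 of 9 differences were negative. The members were proposed with earlier results of these data known, so these counts describe the family and are not a test of it.

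**Figure D1:**
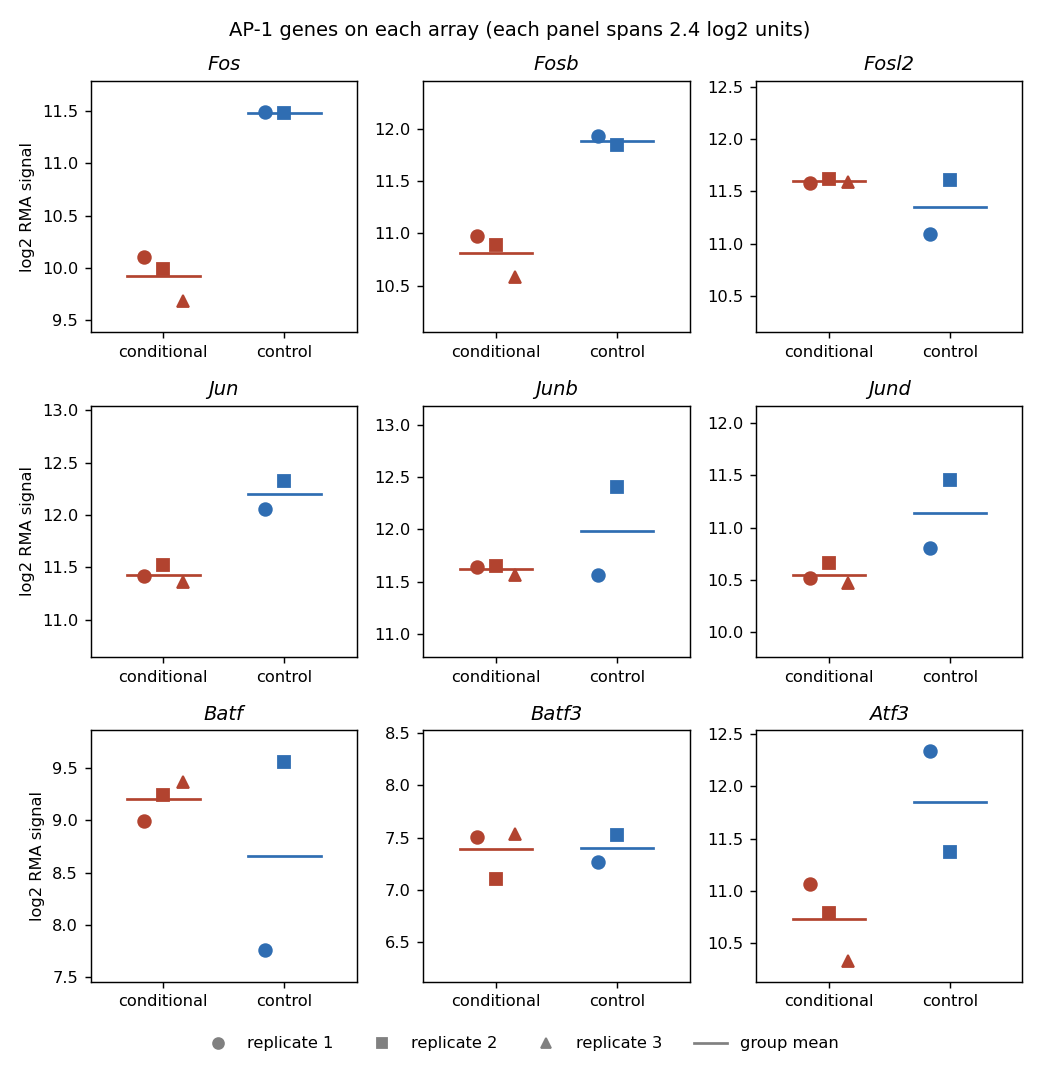
Log2 RMA signal (y axis) of the 9 AP-1 genes on 3 conditional and 2 control arrays (x axis), with marker shape giving the replicate number, a line at each group's mean and the same span of the log2 scale in every panel. Fos, Fosb, Jun, Jund and Atf3 have every conditional array below both controls; the controls of Fos lie 0.01 apart and those of Batf 1.80 apart.

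The FOS proteins are the partners that raise DNA affinity and activity of JUN. Fos was read at 10.10, 9.99 and 9.68 in conditional replicates 1, 2 and 3 and at 11.49 and 11.48 in control replicates 1 and 2. The conditional values spread over 0.41 and lay at least 1.38 below the controls. The difference was -1.56 ± 0.156 (SE, n = 3 and 2), with a 95% confidence interval from -1.96 to -1.16 (limma, adjusted p = 0.0448). It was -1.57 when set against control replicate 1 and -1.55 when set against control replicate 2, and those arrays differed in their T cell, epithelial and stromal marker levels. The mean epithelial marker level was itself below both controls on every conditional array and lowest on conditional replicate 3, as Fos was. Gene by gene, 9 of 14 epithelial markers lay below both controls (13.1% of all genes) and 5 overlapped. The mean macrophage and the mean granulocyte marker levels were above both controls on every conditional array. Of 12 macrophage markers, 7 lay above both controls (17.4% of all genes) and 5 overlapped. Of 10 granulocyte markers, 7 lay above both (17.4% of all genes), 1 lay below both (13.1% of all genes) and 2 overlapped. The part of these markers in the Fos difference was not tested. The call was lost without conditional replicate 1, 2 or 3, at adjusted p of 0.171, 0.350 and 0.192 with limma and differences of -1.65, -1.59 and -1.44. In those fits 0 of 19937 genes passed. The Fos call was also lost after another quantile normalization (limma, adjusted p = 0.0525) and with limma array weights (adjusted p = 0.167).

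Fosb encodes a close relative of FOS that is induced by the same signals. It stood at 10.97, 10.89 and 10.58 in conditional cells and at 11.93 and 11.84 in control cells. The lowest control value lay 0.88 above the highest conditional value, and the controls differed by 0.09. The difference was -1.07 ± 0.154 (SE; interval from -1.46 to -0.68), which did not pass over all genes (limma, adjusted p = 0.0765). Against control replicate 1 alone it was -1.12 and against control replicate 2 alone -1.03.

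Fosl2, which encodes FRA-2, a longer-lived FOS protein, showed another pattern. Its values were 11.58, 11.62 and 11.59 in conditional cells and 11.09 and 11.61 in control cells. The conditional arrays spanned 0.04 and matched control replicate 2, and control replicate 1 alone was lower. The difference was 0.25 ± 0.176 (SE; interval from -0.20 to 0.70; limma, adjusted p = 0.591). It was 0.50 against control replicate 1 (adjusted p = 0.0267) and -0.01 against control replicate 2.

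The JUN proteins are the core of the dimer. Jun, which encodes the strongest activator of the 3, was read at 11.42, 11.52 and 11.36 in conditional and at 12.06 and 12.33 in control cells. The groups were 0.54 apart, and the controls differed by less than the groups did. The difference was -0.76 ± 0.131 (SE; interval from -1.10 to -0.43; limma, adjusted p = 0.103). It was -0.63 when set against control replicate 1 and -0.90 when set against control replicate 2.

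Jund encodes a JUN protein that is present in resting cells as well as stimulated ones. It was read at 10.52, 10.66 and 10.47 in conditional cells and at 10.81 and 11.46 in control cells. The groups did not overlap, but the gap of 0.16 between them was smaller than the range of the conditional arrays, 0.19. The difference of -0.59 ± 0.216 (SE; interval from -1.14 to -0.04) did not pass over all genes (limma, adjusted p = 0.321), and it was -0.26 against control replicate 1 (adjusted p = 0.221) and -0.91 against control replicate 2 (adjusted p = 0.0214).

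Junb, whose product competes with JUN for FOS partners and has its own role in Th17 cells, overlapped between the groups. It was at 11.64, 11.65 and 11.56 in conditional cells and at 11.56 and 12.40 in control cells. Control replicate 1 was at the level of the conditional arrays and control replicate 2 stood above them all. The difference of -0.36 ± 0.260 (SE; interval from -1.03 to 0.30; limma, adjusted p = 0.591) was 0.06 when set against control replicate 1 and -0.78 when set against control replicate 2. Centred on each gene's own mean, the Junb and Jund profiles were the closest pair among the members, with a root mean square difference of 0.133 over the 5 arrays, and Jun and Jund followed at 0.149.

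Atf3, a stress-induced factor that pairs with JUN proteins or with itself and often represses, was the member with the second most negative difference. Its values were 11.07, 10.79 and 10.33 in conditional cells and 12.34 and 11.37 in control cells. All conditional arrays were below both controls, but the controls were 0.96 apart and the gap between the groups was 0.30. The difference was -1.12 ± 0.363 (SE; interval from -2.05 to -0.20; limma, adjusted p = 0.269). It was -1.61 against control replicate 1, the array with the highest epithelial and stromal marker levels, and -0.64 against control replicate 2.

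Batf encodes a small zipper protein without an activation domain of its own. It was read at 8.99, 9.24 and 9.37 in conditional cells and at 7.76 and 9.56 in control cells. The conditional values all lay between the controls, and the controls were 1.80 apart, the widest such gap of the 9 members. The difference of 0.54 ± 0.536 (SE; interval from -0.83 to 1.91; limma, adjusted p = 0.719) was 1.44 against control replicate 1 (adjusted p = 0.0034) and -0.36 against control replicate 2 (adjusted p = 0.350), so its direction turned with the control. Control replicate 1, where Batf was lowest, was also the array with the lowest T cell marker level.

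Batf3, best known for its role in cross-presenting dendritic cells, was at 7.51, 7.11 and 7.54 in conditional cells and at 7.27 and 7.53 in control cells. The groups overlapped fully and the difference was -0.02 ± 0.182 (SE; interval from -0.48 to 0.45; limma, adjusted p = 0.981). Its signal was near the arrays' medians.

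**Figure D2:**
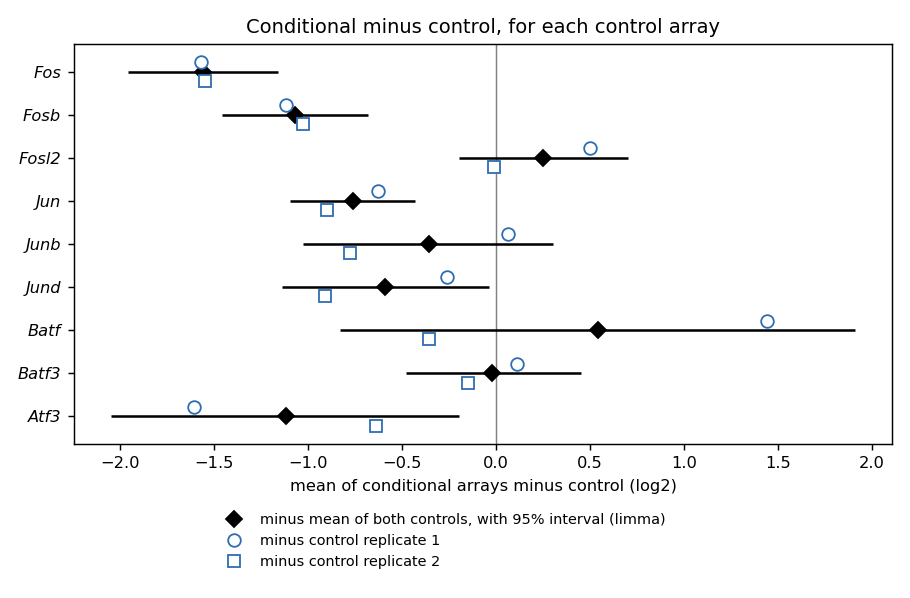
Mean of the 3 conditional arrays minus control on the log2 scale (x axis) for the 9 AP-1 genes (y axis); diamonds and bars give the limma difference from both controls with its 95% confidence interval, circles the difference from control replicate 1 and squares that from control replicate 2. The circle and the square of Fos nearly coincide, at -1.57 and -1.55, whereas those of Batf lie on opposite sides of 0, at 1.44 and -0.36.

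The members differed in how far the result depended on the control array. The difference between the groups was larger than the difference between the controls for 4 members, Fos, Fosb, Jun and Atf3. Control replicate 2 was the higher control for 6 members, and control replicate 1 for Fos, Fosb and Atf3. The median of the 9 differences was -0.26 when set against control replicate 1 and -0.78 when set against control replicate 2. With control replicate 2 alone, 5 members passed, all lower (Fos, Fosb, Jun, Junb and Jund), where 6.1% of all genes passed. With control replicate 1 alone, 6 passed, 4 lower (Fos, Fosb, Jun and Atf3) and 2 higher (Fosl2 and Batf), where 27.5% of all genes passed. These 2 fits share their conditional arrays, and in each the lone control is assumed to vary like those arrays. Among the conditional arrays, replicate 3 had the lowest value of 6 members (Fos, Fosb, Jun, Junb, Jund and Atf3) and the highest of Batf and Batf3. It was also the conditional array with the lowest epithelial and stromal and the highest macrophage marker level.

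The genes whose values ran closest to Fos over the 5 arrays, by the root mean square difference of centred log2 values, were Sgk3 (0.0486), Pip5k1b (0.107), Rreb1 (0.123), Tubb2b (0.136) and Ets2 (0.146). The nearest to Batf were Ankrd44 (0.0455), Fcho1 (0.0747), Hcst (0.0750), Dock11 (0.0800) and Map4k1 (0.0935). The Fos group was low on all conditional arrays, and the Batf group was low on control replicate 1. For the other members the nearest gene was Bcl9 for Fosb (0.0577), Acin1 for Fosl2 (0.0246), Btg2, itself an immediate-early gene, for Jun (0.0489), Jmy for Junb (0.0392), Slc25a25 for Jund (0.0316), Tnnt1 for Batf3 (0.0143) and Gaa for Atf3 (0.0709). Fos and Fosb differed from each other by 0.240 on this measure, and Batf and Atf3 were the most unlike pair, at 1.25. With 5 arrays and 19937 genes, close profiles are easily found, and the values are a description.

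**Figure D3:**
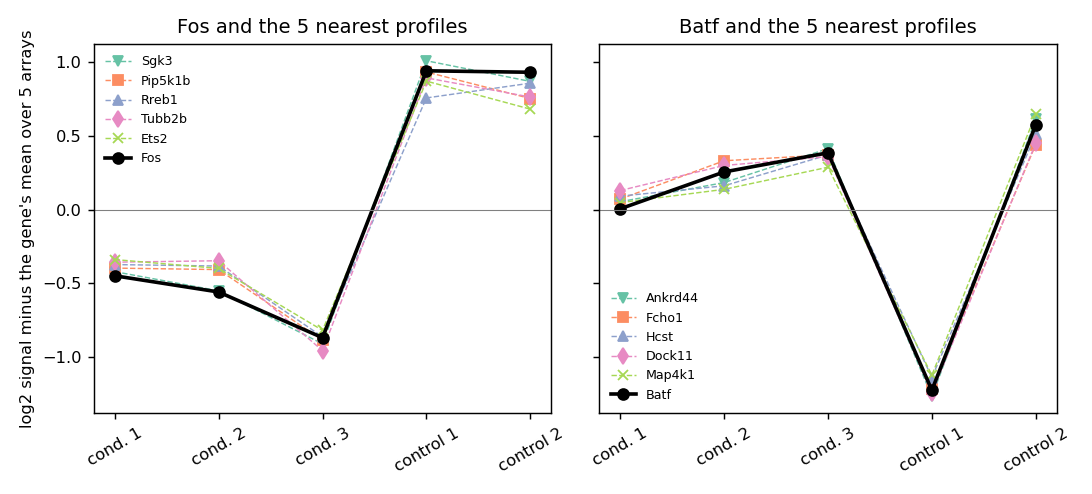
Log2 signal minus each gene's own mean over the 5 arrays (y axis) on each array (x axis) for Fos (left, black) and Batf (right, black), each with the 5 genes of smallest root mean square difference (dashed). The Fos group is low on the 3 conditional arrays and high on both controls; the Batf group is low on control replicate 1 alone.

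Fos and Batf lie near each other on chromosome 12, with 1 protein-coding gene between them, Jdp2, which encodes an AP-1 repressor. Jdp2 was read at 8.25, 8.13 and 8.13 in conditional cells and at 8.83 and 7.87 in control cells, a difference of -0.19 (limma, adjusted p = 0.848). In conditional cells Fos was below both controls, while Jdp2 and Batf lay between them, with control replicate 1 the higher control for Jdp2 and the lower one for Batf. Batf3 and Atf3 on chromosome 1 are likewise separated by 1 protein-coding gene, and the former overlapped between groups where the latter did not.

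Among relatives of AP-1 and competing zipper factors, values lay on both sides of 0. Of 20 listed, 19 were analysed here, with 0 past the threshold in limma (2 lower and 1 higher at an unadjusted p of 0.05, against 5.91% and 8.59% of all genes), 4 above and 2 below both controls (17.4% and 13.1% of all genes), and a median difference of 0.03, the same as that of all genes. Maff, a small MAF protein induced by stress, was at 8.67, 8.74 and 8.49 in conditional cells and at 9.50 and 9.87 in control cells, a difference of -1.05 ± 0.161 (SE, limma, adjusted p = 0.0834). Its relative Mafk differed by -0.48 (adjusted p = 0.209). Crem, a cAMP-responsive factor, was at 9.13, 9.35 and 9.23 against 8.41 and 8.64, a difference of 0.71 ± 0.132 (SE, limma, adjusted p = 0.115), and Atf6 differed by 0.55 (adjusted p = 0.428), or by 0.13 against control replicate 1 alone.

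Kinases and factors upstream of AP-1 had a median of 0.26, with 22 of 29 analysed here. None passed (limma, 0 higher and 0 lower, with 9 higher and 1 lower at an unadjusted p of 0.05, against 8.59% and 5.91% of all genes), and 10 lay above both controls and 3 below, against 17.4% and 13.1%. With control replicate 1 alone the median was 0.41 and with control replicate 2 alone 0.14. Nras differed by 0.71 (adjusted p = 0.152), Map3k7, the kinase TAK1, by 0.48 (adjusted p = 0.159) and Braf by 0.47 (adjusted p = 0.174). Map2k6, which activates p38, was at 6.81, 6.47 and 6.51 in conditional cells and at 7.74 and 7.67 in control cells, a difference of -1.11 ± 0.144 (SE, limma, adjusted p = 0.0672).

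For calcineurin and NFAT genes, 9 of 9 were analysed and 0 passed (limma, against 0.416% of all genes), with a median at 0. At an unadjusted p of 0.05 in limma, 1 was higher and 0 lower, against 8.59% and 5.91% of all genes. Above both controls lay 3 and below both 0, against 17.4% and 13.1% of all genes. Nfatc3 was at 11.64, 11.68 and 11.78 in conditional cells and at 10.62 and 11.35 in control cells, a difference of 0.72 (adjusted p = 0.274). Nfatc2, the NFAT1 gene, differed by 1.11 (adjusted p = 0.436) but by 0.18 against control replicate 2 alone. Ppp3cb differed by 0.16 (adjusted p = 0.586). Rcan1, a calcineurin inhibitor that NFAT induces, differed by -0.54 (adjusted p = 0.691), by -1.37 against control replicate 1 and by 0.29 against control replicate 2.

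Genes known as targets of NFAT and AP-1 together, cytokines and activation receptors, had a median of 0.75 over 14 of 14 analysed, the opposite sign to the AP-1 genes. Of these, 1 rose and 0 fell past the threshold in limma, against 0.371% and 0.0451% of all genes. At an unadjusted p of 0.05 in limma, 6 were higher and 0 lower, against 8.59% and 5.91%. Above both controls lay 6 and below both 0, against 17.4% and 13.1% of all genes. Csf2, Il5 and Il13 were among the 6 in both counts. Il5, like Il2, Il3 and Il4, was read below the array's median on every array. Csf2 was below it on both controls, and Il13 on control replicate 1. Whether such dim signals stood above background could not be judged. Tnfrsf9, the costimulatory receptor 4-1BB, rose from 10.05 and 10.37 in control cells to 12.37, 12.29 and 12.10 in conditional cells, 4.11-fold (limma, adjusted p = 0.0294). The call was lost without any 1 conditional array (limma, adjusted p = 0.168, 0.303 and 0.171) and with array weights (adjusted p = 0.103). Without any 1 conditional array, 0 of 19937 genes passed. Set against control replicate 1 the list had a median of 1.37 and set against control replicate 2 one of 0.15, and the T cell markers had medians of 2.36 and -0.30 in the same comparisons.

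Partners and targets of BATF with IRF factors had a median of 0.36 over 14 of 15 analysed, with 9 above both controls (17.4% of all genes) and 0 below (13.1%). With control replicate 1 alone the median was 0.68 and with control replicate 2 alone 0.23, beside T cell marker medians of 2.36 and -0.30. Rora, a nuclear receptor of the Th17 programme, rose from 10.70 and 10.56 in control cells to 11.66, 11.63 and 11.68 in conditional cells, 2.04-fold (limma, adjusted p = 0.0477). That call was lost without conditional replicate 1, 2 or 3 (adjusted p = 0.271, 0.350 and 0.287), after median centring (adjusted p = 0.0605) and with array weights (adjusted p = 0.130). It was also lost with either filter on dim genes (adjusted p = 0.0508 and 0.0502). Without any 1 conditional array, 0 of 19937 genes passed. No other member of this list passed in the main comparison, where 0.371% of all genes passed as higher and 0.0451% as lower.

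Among other immediate-early and dissociation-induced genes, 28 were listed and 27 analysed. Of these, 17 lay below both controls (13.1% of all genes), 2 above both (17.4% of all genes) and 8 overlapped, and the median difference was -0.62. None passed (limma), with 14 lower (5.91% of all genes) and 1 higher (8.59% of all genes) at an unadjusted p of 0.05. Hspa1a, an inducible HSP70 gene, was at 11.00, 10.93 and 10.92 in conditional cells and at 12.43 and 13.05 in control cells, a difference of -1.78 ± 0.202 (SE, limma, adjusted p = 0.0545). It has a near-identical copy, Hspa1b, with which its probe set may share signal. Egr2, an activation factor that NFAT also induces, was at 8.51, 8.45 and 8.32 against 9.79 and 9.50, a difference of -1.22 (adjusted p = 0.0546). Ier2 differed by -0.85 (adjusted p = 0.0938) and Arc by -0.62 (adjusted p = 0.121), each with all conditional values below both controls. Hspa1a passed with median centring (adjusted p = 0.0494) and an intensity trend (adjusted p = 0.0395). Set against control replicate 1 the list had a median of -0.51, and set against control replicate 2 one of -0.84. Cell isolation induces these genes and most AP-1 members alike, and no sample here separates isolation from genotype, so their parts were not tested.

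**Figure D4:**
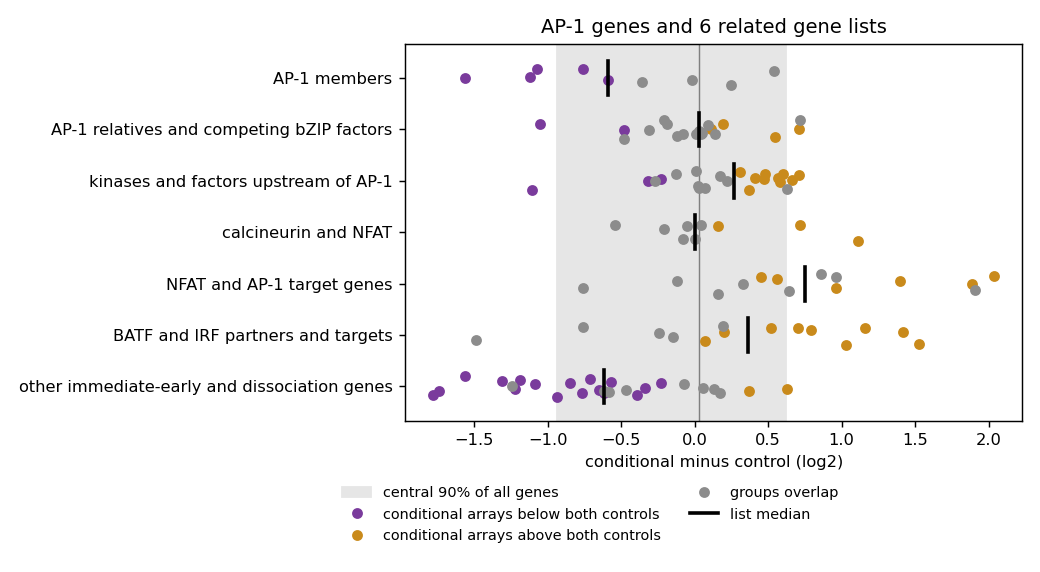
Conditional minus control on the log2 scale (x axis) for the AP-1 genes and 6 related lists (y axis); each point is 1 gene, coloured by whether its conditional arrays lie below both controls, above both or overlap them, black bars are list medians and the grey band holds the central part of all genes. The medians of the AP-1 genes and of the other immediate-early genes, -0.59 and -0.62, lie to the left, and that of the NFAT and AP-1 target genes, 0.75, to the right.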

How the data were processed

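Total RNA was amplified with a whole-transcript kit, biotin-labelled and hybridised to Affymetrix arrays, per the labels' protocols. The authors deposited log2 signals, for which the submitters' processing notes name RMA and oligo; their versions and a genome build are not stated there. RMA normalizes probe intensities of the arrays to one distribution, so a global shift would be reduced. The deposited probe set values still had medians from 7.12, in control replicate 1, to 7.23, in conditional replicate 3.

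Of 34760 probe sets, 21640 had 1 gene symbol in the platform's annotation, 1321 several and 11799 none; these last 2 kinds were not named. The probe set of highest mean stood for each of 19937 genes. Groups came from the titles. Conditional was compared with control by limma (version 3.58.1, R 4.3.3; lmFit, eBayes, no covariate; 3 residual and 2.10 prior degrees of freedom), Benjamini-Hochberg adjusted over all genes, threshold 0.05. The code was tested on simulated data. The number of arrays limits precision.

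The members and all lists were chosen with earlier results of these data known. Named were all members, list genes past the threshold or else up to 4 with the smallest p, and the 5 nearest profiles of Fos and Batf and 1 of each other member, predicted genes and small RNAs left out. Jdp2 as a neighbour and Ppp3r1 as the targeted gene were added. Alternatives were 2 normalizations, 2 filters, 2 probe set rules, 2 variance models, array weights, a replicate block, each array left out and a threshold of 0.1.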

Additional observations from a re-analysis of the deposited data

How the results depend on the processing

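Fos kept a negative difference under every alternative run, from -1.67 with array weights to -1.44. The number of AP-1 genes past the threshold, 1 in the main comparison, was 0 after another quantile normalization, 0 with array weights and 0 with the replicate block, with 5, 5 and 4 of 9 at an unadjusted p of 0.05 in limma, where 15.3%, 11.3% and 8.2% of all genes were. Array weights gave 13 genes in all, in place of 83. A threshold of 0.1 gave 374 genes (1.88% of all) and 2 AP-1 genes, Fos and Fosb. Leaving out 1 array gave between 0 and 5474 genes and between 0 and 6 AP-1 genes; the counts of 0 came without a conditional array, with 1417 to 2037 genes and 3 to 4 AP-1 genes at an unadjusted p of 0.05. The median difference of the AP-1 genes then ran from -0.78 to -0.26. Signs turned, when 1 array was left out, for Fosl2 (-0.01 to 0.50), Junb (-0.78 to 0.06), Batf (-0.36 to 1.44), Batf3 (-0.15 to 0.12) and Rcan1 (-1.37 to 0.29), and for Batf3 with array weights (0.07). The causes were not tested. The 9 members have 1 probe set each, so the probe set rules changed no member's values, and the median filter left out Batf3. Among single genes, 349 results kept their direction and side of the threshold, 29 newly passed, 18 no longer passed and 7 turned.

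The titles number the replicates 1 to 3 and 1 to 2 and do not say that equal numbers share an experiment. Deviations from the group means correlated over genes at 0.400 for number 1 and -0.287 for number 2. With 2 controls, the deviations of one are those of the other with the sign turned. The correlations are therefore not separate checks, and they cannot show whether equal numbers share an experiment. With the replicate block, 69 genes passed and the calls of Fos and Rora were lost, at -1.44 and 1.02 (limma, adjusted p = 0.109 and 0.288). Conditional replicate 3 has no control of its number, so the block takes no group difference from it. The differences are those obtained without that array. Signal over background could not be judged from these files.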
